A study of Homo sapiens with 4 samples.

Results

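The genes described here are the solute carriers that were expressed in HCT116 or Caco-2 cells. They were chosen by symbol (SLC, a family number, A and a member number) with the mitochondrial SLC25 family and 9 named carriers left out, and by level. Of 274 such genes with a probe set of their own on the array, 162 were kept because their brightest probe set was at or above the array median on 1 or more of the 4 arrays, from 50 of 55 families. The array measured 18132 genes in all, of which 11165 passed the same threshold. The levels on the 4 arrays chose the members, so their being expressed is a description and not a result. Just inside the threshold were SLC4A4, SLC24A5 and SLC16A13, whose highest reading stood 0.001, 0.010 and 0.040 above the array median on the log2 scale, and just outside were SLC27A6, SLC38A4 and SLC15A3 at -0.010, -0.045 and -0.081. The other 112 carriers were below the threshold, and 94 of them were below background on all 4 arrays.

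HCT116 and Caco-2 are established colorectal cancer cell lines. Each was transfected for 3 days with siRNA against BORIS or with a negative control siRNA, and total RNA of each culture went onto 1 PrimeView array. The 4 groups, of 1 array each, were HCT116 with BORIS siRNA, HCT116 with control siRNA, Caco-2 with BORIS siRNA and Caco-2 with control siRNA. All 4 shared the lipid transfection reagent and a high-glucose medium with serum. BORIS, encoded by CTCFL, is a testis relative of CTCF, a zinc finger protein that organises chromatin loops. Neither siRNA's sequence is stated in the labels. Since each group was a single array, a difference between siRNAs inside 1 line carries neither an error nor a p-value, and precision is limited by how few arrays there are.

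Solute carriers are membrane proteins that move ions, nutrients, vitamins, metals and metabolites, either down a gradient or coupled to the movement of another ion. In the gut epithelium, apical carriers take nutrients from the lumen and basolateral carriers pass them to the blood, and cancer cells depend on carriers of amino acids, sugars and nucleosides for growth. Members of 1 family usually share a fold and often, but not always, a substrate. Not every gene chosen by symbol works at the plasma membrane. Of the 162, 37 were listed as belonging to families or genes known mainly from intracellular membranes. Examples are zinc carriers of vesicles, nucleotide sugar carriers of the Golgi and carriers of lysosomes.

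The labelled cell types were checked against markers. All 6 epithelial markers (EPCAM, CDH1, KRT8, KRT18, KRT19 and CDX2) reached the median on at least 1 array. VIL1, of the brush border, read 9.33 and 9.57 in Caco-2 with BORIS and control siRNA and was below background in HCT116, whereas FABP1, ALPI and SI, of mature enterocytes, were below background on all 4 arrays and APOA1 on 3 of them. All 5 fibroblast markers, 3 of 4 measured blood markers and 2 of 3 endothelial markers were below background on every array. The summed linear level of the fibroblast list was 82.1 and 77.3 in HCT116 and 66.0 and 72.7 in Caco-2, with BORIS and control siRNA in that order, and that of the epithelial list was 25418 and 30664 in HCT116 and 37368 and 36894 in Caco-2. CTCFL itself has 7 probe sets, none of which reached the median, and 6 were below background on all 4 arrays. The 1 above background, on both Caco-2 arrays, read 5.09 with BORIS and 5.07 with control siRNA, so the knockdown could not be measured and the target gives no check of the labels. Background here is the level that 95% of the 359 probe sets of olfactory receptor genes stay under on an array, 4.82 to 5.18.

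Of the members, 127 reached the median on all 4 arrays. In HCT116 148 members were expressed, meaning at or above the median on at least 1 of its 2 arrays, and in Caco-2 149 were. Both lines expressed 135 of them, HCT116 alone 13 and Caco-2 alone 14. In bulk RNA, fewer cells that express a gene and less RNA per cell cannot be told apart.

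Promoter sequence is shown for 4 members with 1 annotated start and fitted line differences among the largest: SLC10A4 and SLC27A5, read high in HCT116, SLC40A1, read high in Caco-2, and SLC16A12, above background only in Caco-2 with BORIS siRNA. Each is the 250 bases before the start of transcription, 5′ to 3′ on the strand of the gene, from RefSeq on GRCh38.p14. SLC10A4 lies at chr4:48483093-48483342 on the plus strand, SLC27A5 at chr19:58511993-58512242, SLC40A1 at chr2:189580787-189581036 and SLC16A12 at chr10:89535595-89535844, these 3 on the minus strand. Capitals mark matches, on either strand, to GGNGGCAG, TGATGNAA or TGCGCNC. GGNGGCAG is part of the CTCF consensus, which BORIS shares, and TGATGNAA is the core of the amino acid response element. TGCGCNC is 1 form of the core of the metal response element, and other forms were not searched.
SLC10A4: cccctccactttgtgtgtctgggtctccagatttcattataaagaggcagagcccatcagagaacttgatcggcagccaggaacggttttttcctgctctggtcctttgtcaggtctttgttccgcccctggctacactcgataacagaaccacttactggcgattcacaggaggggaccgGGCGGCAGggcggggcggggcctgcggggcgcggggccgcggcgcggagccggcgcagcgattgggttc
SLC27A5: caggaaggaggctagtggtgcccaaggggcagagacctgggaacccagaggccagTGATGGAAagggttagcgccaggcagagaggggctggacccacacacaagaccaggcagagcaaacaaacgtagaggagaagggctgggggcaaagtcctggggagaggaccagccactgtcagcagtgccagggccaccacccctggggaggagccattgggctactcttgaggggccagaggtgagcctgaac
SLC40A1: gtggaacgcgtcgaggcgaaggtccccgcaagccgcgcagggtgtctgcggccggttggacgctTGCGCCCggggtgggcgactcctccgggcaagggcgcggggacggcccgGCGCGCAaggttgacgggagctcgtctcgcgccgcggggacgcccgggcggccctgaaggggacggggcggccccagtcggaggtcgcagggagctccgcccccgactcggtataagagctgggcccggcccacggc
SLC16A12: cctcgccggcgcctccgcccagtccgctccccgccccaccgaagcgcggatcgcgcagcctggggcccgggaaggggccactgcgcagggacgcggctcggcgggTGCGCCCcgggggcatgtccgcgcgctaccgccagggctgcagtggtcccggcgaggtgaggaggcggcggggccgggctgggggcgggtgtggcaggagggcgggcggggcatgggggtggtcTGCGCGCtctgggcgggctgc

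The SLC10A4 window holds 1 match to GGNGGCAG, the SLC27A5 window 1 to TGATGNAA, and the SLC40A1 and SLC16A12 windows 2 each to TGCGCNC. The 4 windows hold 19, 2, 38 and 34 CpG pairs in the same order. A window for 137 members was in the table, 211 windows in all. GGNGGCAG occurs in 11.8% of member windows and in 13.4% of all 35116 windows, TGATGNAA in 2.37% and 3.14%, and TGCGCNC in 19.9% and 16.8%. The median number of CpG pairs was 19 in member windows, 11 in all windows and 20 in the 13453 windows of genes that passed the level threshold. The motif shares, set beside all windows, are therefore not matched for CpG pairs. A match is a run of letters, not a site.

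The first comparison asked how the carriers differ between the lines. More members were lower than higher in HCT116 relative to Caco-2. By limma, with siRNA as a block and p-values adjusted over 11165 genes, 23 members (14.2%) were higher and 46 (28.4%) lower, beside 19.4% of all genes higher and 19.8% lower. The median difference, HCT116 minus Caco-2, was -0.12 over members and 0.01 over all genes tested. For 120 members (74.1%) the readings of the lines did not overlap, beside 71.1% of all genes. The level threshold admits a gene through either line and was the same for members and all genes, so 27 members expressed in 1 line only were bound to lean one way; the 127 members at or above the median on every array held 14 higher (11.0%) and 30 lower (23.6%), beside 16.6% and 18.3% of the 9317 genes at or above it on every array. The labelled poly-A spike-ins, added to the RNA before labelling, read higher by 1.22 in HCT116 than in Caco-2, and the hybridisation spike-ins by 0.56; their part in the result was not tested.

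Some of the largest line differences were in a choline-like carrier and carriers of iron and cationic amino acids, which read below background in HCT116. SLC44A4, which takes up thiamine pyrophosphate in the colon, read 3.94 and 4.61 in HCT116 with BORIS and control siRNA, against 9.37 and 9.21 in Caco-2. The line difference was -5.01 ± 0.24 (SE; limma adjusted p = 3.29e-05), and since HCT116 was below background it stands for at least 17.8-fold lower. SLC40A1, ferroportin, the iron exporter of enterocytes and macrophages, read 3.24 and 3.71 in HCT116, against 7.59 and 7.47 in Caco-2, at least 5.26-fold lower in HCT116 (adjusted p = 7.70e-05). SLC7A7, the light chain of a basolateral exchanger of cationic amino acids, read 4.02 and 4.01 in HCT116, against 7.47 and 8.18 in Caco-2, at least 6.43-fold lower (adjusted p = 9.66e-05). In these 3 genes both HCT116 readings were below background and both Caco-2 readings were well above it.

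Other carriers were lower in HCT116 without being below background on both of its arrays. SLC12A2, the basolateral sodium, potassium and chloride cotransporter NKCC1, read 8.97 and 9.53 in HCT116, against 11.81 and 11.43 in Caco-2, a difference of -2.37 ± 0.23 (adjusted p = 0.000567) seen on 3 of 3 probe sets. SLC37A1, a sugar phosphate antiporter of the endoplasmic reticulum, read 5.32 and 5.74 in HCT116, close to background, against 7.75 and 8.01 in Caco-2 (-2.35; adjusted p = 0.000222). The vesicular nucleotide carrier SLC17A9 differed by -1.68 (adjusted p = 0.000709). SLC43A1, a carrier of large neutral amino acids, read 4.96 and 5.14 in HCT116, 1 below and 1 just above background, against 7.21 and 7.17 in Caco-2. The glutamine carrier SLC1A5 read 9.28 and 9.24 in HCT116, against 10.82 and 10.73 in Caco-2, and differed by -1.52 on 3 of 3 probe sets (adjusted p = 0.000623). For 4 genes below background in HCT116 the bound was small or could not be set. SLC16A4 and SLC4A4 were at least 1.70- and 1.14-fold lower there. For SLC16A12 and SLC24A5 no bound is given. Their Caco-2 readings with control siRNA, 4.56 and 4.94, were below the background of that array too, 5.06. In Caco-2, SLC4A4 read 5.48 and 5.19 and SLC24A5 5.49 and 4.94, near background, whereas SLC16A12 and SLC16A4 read higher with BORIS siRNA than with control siRNA. When readings under background were set to it, these 4 differences no longer passed the test.

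Higher in HCT116 were SLC10A4 and SLC27A5, tied to bile acids by family or function, carriers of zinc and phosphate, and 1 of glutamate. SLC10A4, an orphan relative of the bile acid carriers, read 7.63 and 7.75 in HCT116 with BORIS and control siRNA, against 3.21 and 3.42 in Caco-2, at least 6.74-fold higher (4.37 ± 0.22; adjusted p = 3.82e-05). SLC27A5, which couples bile acids to coenzyme A in liver, read 8.06 and 7.97 in HCT116, against 4.70 and 4.22 in Caco-2, at least 8.41-fold higher (adjusted p = 6.69e-05). SLC39A4, the zinc importer of the small intestine, read 9.31 and 9.37 in HCT116, against 6.31 and 6.55 in Caco-2, 7.54-fold higher (2.92 ± 0.18; adjusted p = 7.45e-05). SLC1A3, a glial glutamate carrier, read 5.18 and 6.12 in HCT116, against 3.35 and 3.15 in Caco-2, at least 1.64-fold higher, and this call ended with background values raised. SLC1A1, a brighter glutamate carrier of the same family, went the other way. It read 7.79 and 8.29 in HCT116, against 8.90 and 8.83 in Caco-2 (-0.83; limma adjusted p = 0.0205; 2 of 2 probe sets). The phosphate carrier SLC20A1 read 11.00 and 11.75 in HCT116, against 9.96 and 10.07 in Caco-2, and was higher by 1.36 on its only probe set.

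For SLC17A5, the lysosomal sialic acid exporter, and SLC2A6, a lysosomal hexose carrier, the line call rested on probe sets that can bind related transcripts. Their differences were 1.69 and 1.48, and 0.06 and 0.09 on the brightest probe set once those were left out. All probe sets above background, 5 of 5 and 3 of 3, nevertheless read higher in HCT116. The means over all their probe sets were 1.33 and 0.61. Metal carriers of the SLC39 family, which bring zinc into the cytosol, numbered 11 of 14, of which 4 were higher and 1 was lower in HCT116. The choline-like SLC44 family had all 5 of its genes expressed, with 0 higher and 4 lower. The chloride cotransporters of SLC12 had 5 of 8 expressed, with 0 higher and 3 lower. The amino acid carriers of SLC38 had 9 of 12 expressed, with 1 higher and 4 lower. These 4 families were picked from 50 after their counts were seen, to be read beside the 19.4% and 19.8% of all genes; others split evenly, such as SLC16 with 3 higher and 3 lower and SLC30 and SLC37 with 1 and 1 each.

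**Figure D1:**
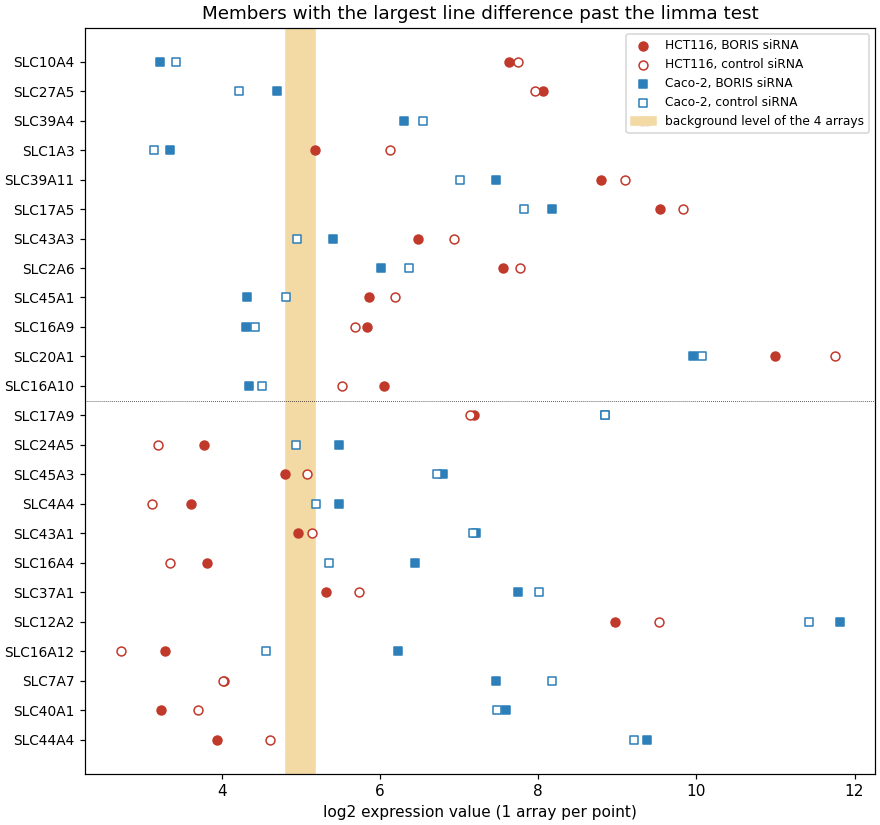
Log2 expression values (x axis) of the 24 members whose line difference was largest among those passing limma, 12 in each direction, 1 point per array, with the shaded band spanning the background levels of the 4 arrays. Filled points are BORIS siRNA and open points control siRNA. The circles of HCT116 and the squares of Caco-2 do not overlap for any gene shown, and many of the low readings lie in or under the band.

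The second comparison asked which carriers read differently under BORIS siRNA than under control siRNA in HCT116. In this line 1 member was lower and 0 were higher at 2-fold or more, beside 1.45% and 0.583% of 10631 expressed genes. The filter admits a gene through either array of the line, for members and all genes alike. The member at 2-fold, SLC29A2, reached the array median only with control siRNA, where it read high. At 1.5-fold or more, 17 members (11.5%) were lower and 5 (3.38%) higher, beside 9.18% and 4.36% of all genes. The share below 0 was 56.8% of members (84 of 148) and 55.4% of all genes, and the medians were -0.06 and -0.05. With quantile normalization the medians were -0.01 and -0.00, with 77 members below 0. The members' spread was 0.41 (SD) and that of all genes 0.40. These shares and the spread are close to those of all genes. The poly-A spike-ins read higher by 0.85 with BORIS siRNA in this line and differed by -0.08 in Caco-2, and their part in these differences was not tested.

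Amino acid carriers made up 7 of the 17, and 31 of the 148 members expressed in HCT116. SLC7A1, the main importer of arginine and lysine, read 8.07 with BORIS siRNA, against 8.99 with control siRNA, a difference of -0.92, with all 3 probe sets above background lower and a mean of -0.34 over its probe sets. SLC6A6, the taurine carrier, read 8.37 against 9.22 (-0.85; 3 of 3 probe sets, mean -0.72). SLC7A5, the leucine carrier LAT1, read 9.41 against 10.22 (-0.81; 2 of 2 probe sets, mean -0.47). Its partner chain SLC3A2 read 10.49 against 10.64 (-0.15; 7 of 7 probe sets). SLC36A1, a lysosomal amino acid carrier, read 6.69 against 7.64, but its difference of -0.95 was -0.27 without the probe sets that can bind related transcripts. SLC1A3 read 5.18 against 6.12 (-0.95, on 2 of 2 probe sets, mean -0.39). Its reading with BORIS siRNA stood at the background of that array, 5.18, so the size of its difference is uncertain. SLC38A12, formerly TMEM104, read 6.40 against 7.27 (-0.87), with 2 of 3 probe sets lower and a mean of -0.18. Over these 31 amino acid carriers 7 were lower at 1.5-fold or more and 0 higher, beside 9.18% and 4.36% of all genes. Below 0 were 20 of the 31, beside 55.4% of all genes, and the median was -0.18. The list was not tested.

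The member past 2-fold was SLC29A2, an equilibrative nucleoside carrier, at 5.36 with BORIS siRNA and 6.73 with control siRNA (-1.37), a 2.58-fold difference. It rests on 1 of 3 probe sets: the others read 5.97 and 6.13 with BORIS siRNA and 5.95 and 5.96 with control siRNA, so neither was lower. SLC29A3, the lysosomal nucleoside carrier, differed by -0.71, while SLC29A1, the main plasma membrane carrier, differed by 0.04. Carriers of phosphate and vitamin C also read lower. SLC20A1 read 11.00 with BORIS siRNA, against 11.75 with control siRNA (-0.75), and its relative SLC20A2 7.62 against 8.28 (-0.65; 2 of 2 probe sets). SLC23A2, the vitamin C carrier, read 6.36 against 7.33 (-0.97), with a mean of -0.16 over its probe sets. SLC22A23, an orphan of the organic cation family, read 7.09 against 7.94 (-0.84; 2 of 2 probe sets, mean -0.38), and the magnesium carrier SLC41A1 7.60 against 8.33. The choline-like SLC44A2 read 7.49 against 8.12 (-0.63), but differed by -0.05 without the probe sets that can bind related transcripts.

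The 5 members higher at 1.5-fold in HCT116 were SLC35A1, SLC37A2, SLC46A3, SLC30A9 and SLC11A1. All 5 are among the 37 members listed as intracellular, which also held 3 lower at 1.5-fold (SLC29A3, SLC35A4 and SLC36A1). The other 111 held 0 higher and 14 lower. Of all genes expressed in HCT116, 4.36% were higher and 9.18% lower at 1.5-fold. The split was not tested and rests on a list drawn from textbook knowledge, chosen with earlier results of these data known. That list leaves out SLC31A2, described below as a carrier of endosomes, which differed by -0.42 in HCT116. It also leaves out SLC2A6, described above as lysosomal, which differed by -0.21 there. SLC35A1, which brings CMP-sialic acid into the Golgi, read 10.64 with BORIS siRNA, against 9.76 with control siRNA (0.88; 2 of 2 probe sets). SLC37A2, a sugar phosphate antiporter, read 7.69 against 6.69, a difference of 0.996 and so just under 2-fold, but of 0.19 without the probe sets that can bind related transcripts. SLC46A3, a lysosomal carrier, read 6.22 against 5.35 on its only probe set above background, and SLC30A9, a zinc carrier of mitochondria, 9.84 against 9.21 (2 of 2 probe sets). SLC11A1, a metal carrier of phagosomes, read 6.49 against 5.66, on the 1 of its 6 probe sets above background. Below 1.5-fold, SLC35A3 and SLC35A5, Golgi nucleotide sugar carriers, read 6.80 against 6.26 and 8.69 against 8.18. Of the 7 nucleotide sugar and acetyl-CoA carriers, 6 were above 0, with a median of 0.17, but SLC35A4 differed by -0.60. All 6 monocarboxylate carriers expressed in HCT116 were above 0, between 0.14 and 0.53, with a median of 0.19. Of all genes expressed in HCT116, 55.4% were below 0, and neither class was tested. The 37 intracellular members had a median of 0.03 with 17 below 0, and the other 111 a median of -0.08 with 67 below 0.

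**Figure D2:**
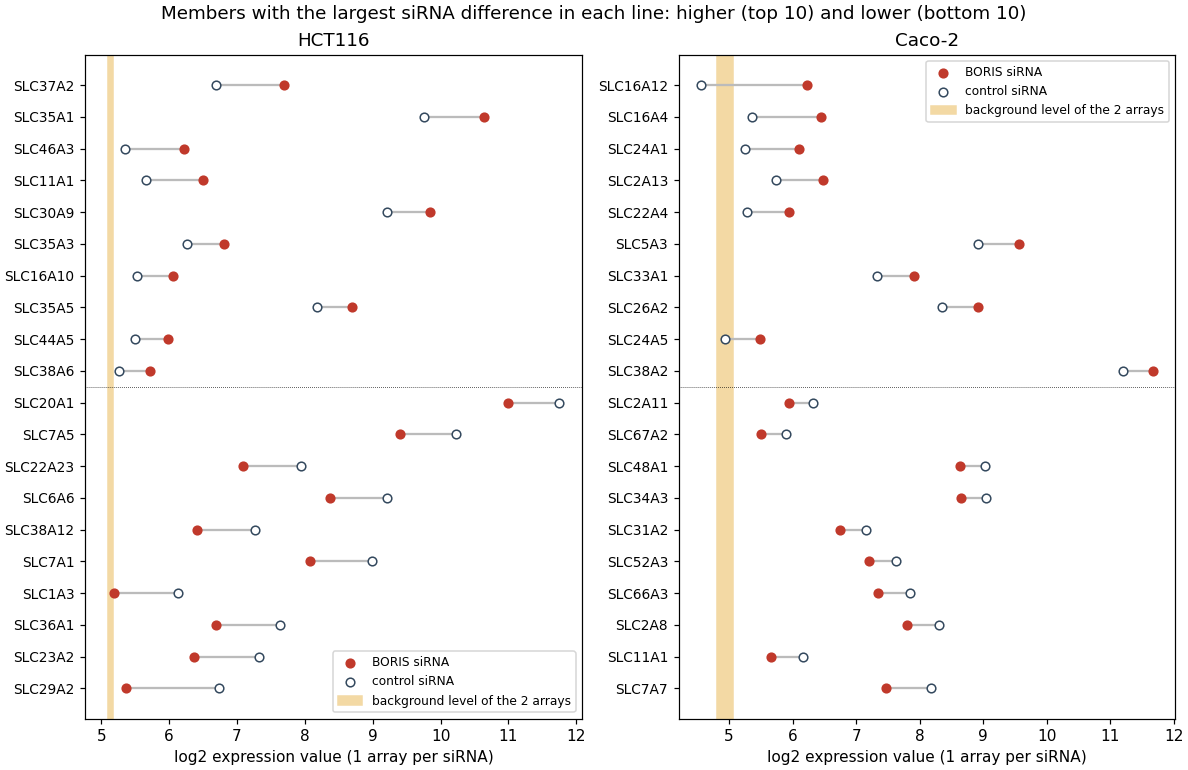
Log2 expression values (x axis) of the 10 members per direction with the largest siRNA difference in HCT116 (left) and Caco-2 (right), 1 array per siRNA. Filled red points are BORIS siRNA, open points control siRNA, and the band spans the background of the 2 arrays. SLC29A2 shows the widest gap in HCT116, 5.36 against 6.73, and SLC16A12 in Caco-2, 6.23 against 4.56.

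The same question in Caco-2 gave fewer differences. At 2-fold or more 2 members were higher and 0 lower, beside 0.404% and 0.0481% of 10389 genes. Here too the filter admits a gene through either array of the line, for members and all genes alike. SLC16A12, SLC16A4, SLC22A4 and SLC24A1 reached the array median only with BORIS siRNA, where they read high. Their being counted among the higher members therefore leans on the filter. At 1.5-fold or more 7 members (4.70%) were higher and 1 (0.671%) lower, beside 2.78% and 1.14%. The share below 0 was 53.7% (80 of 149) beside 49.4%, with medians of -0.04 and 0.00. The spread of the members' differences was 0.31 (SD), beside 0.27 for all genes.

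Both of the members higher at 2-fold are in the monocarboxylate family. SLC16A12, a carrier of creatine, read 6.23 with BORIS siRNA and 4.56 with control siRNA. The control reading was below background, so the difference of 1.67 stands for at least 2.25-fold higher. SLC16A4, whose substrates are not settled, read 6.45 against 5.36 (1.09); all 3 probe sets above background were higher, and the mean over its probe sets was 0.62. Without the probe sets that can bind related transcripts it differed by 0.60, under 2-fold. Of the 5 family members expressed in Caco-2, the other 3 were below 0 and the family median was -0.11.

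SLC5A3, a sodium-coupled myo-inositol carrier, read 9.56 with BORIS siRNA, against 8.91 with control siRNA (0.65), on 1 probe set that can bind related transcripts. SLC33A1, which carries acetyl-CoA into the endoplasmic reticulum, read 7.91 against 7.32 (0.59; 4 of 4 probe sets), and the sulfate carrier SLC26A2 8.91 against 8.35 (0.56; 4 of 4). SLC38A2, a carrier of small neutral amino acids, read 11.67 against 11.20 (0.47; 3 of 3). SLC22A4, a carrier of ergothioneine, read 5.94 against 5.28, and SLC24A1, an exchanger of sodium for calcium and potassium, 6.10 against 5.25. SLC2A13, a proton-coupled inositol carrier, read 6.48 against 5.74 (0.74), but the sign turned without the probe sets that can bind related transcripts (-0.09).

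The 1 member lower at 1.5-fold in Caco-2 was SLC7A7, at 7.47 with BORIS siRNA and 8.18 with control siRNA (-0.71) on its only probe set. SLC2A8, an intracellular hexose carrier, read 7.71 and 7.76 in HCT116 with BORIS and control siRNA and 7.80 and 8.31 in Caco-2 (-0.51). SLC66A3 read 7.34 against 7.84 (-0.50; 2 of 2 probe sets), and the riboflavin carrier SLC52A3 7.21 against 7.62 (-0.41). All 8 vitamin carriers expressed in Caco-2 were below 0, beside 49.4% of all genes. Their median was -0.22, and the lowest was SLC52A3. The nearest to 0 was SLC19A1 at -0.03, with 2 of 4 probe sets lower and a mean of 0.06 over its probe sets. In HCT116 5 of 7 vitamin carriers were below 0, beside 55.4% of all genes. There SLC52A3 read 7.64 with BORIS siRNA, against 7.27 with control siRNA. The class was not tested.

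**Figure D3:**
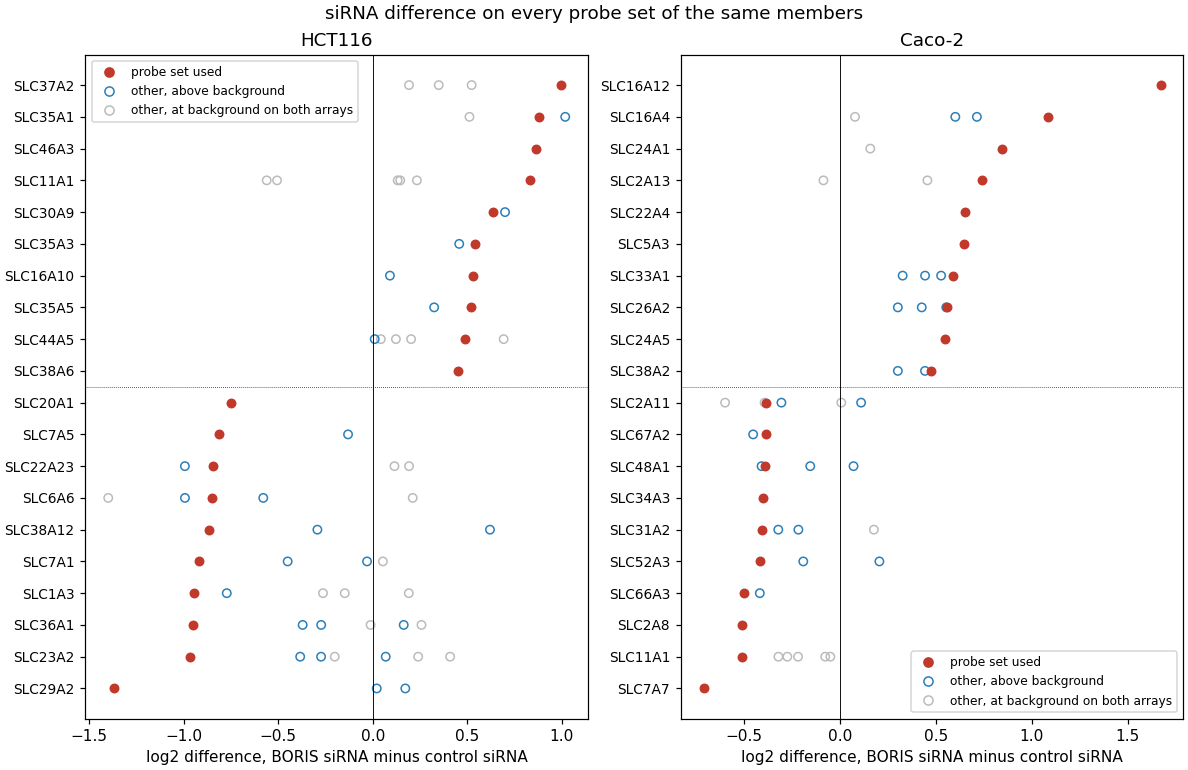
Log2 difference, BORIS siRNA minus control siRNA (x axis), on every probe set of the same members in HCT116 (left) and Caco-2 (right). Filled red points are the probe set used, blue rings other probe sets above background, grey rings probe sets at background on both arrays. For SLC29A2 the used probe set is at -1.37 and the other rings lie near 0.

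How far probe sets of 1 gene went the same way bears on each of these values. In HCT116, 99 members had 2 or more probe sets above background, and in 66 of them all such probe sets shared a sign. In Caco-2 this was so for 58 of 102. Among members at 1.5-fold or more it was so for 10 of 16 in HCT116 and 2 of 2 in Caco-2. The probe set used for 49 members is of a kind that can bind related transcripts, and 9 of these have no other.

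**Figure D4:**
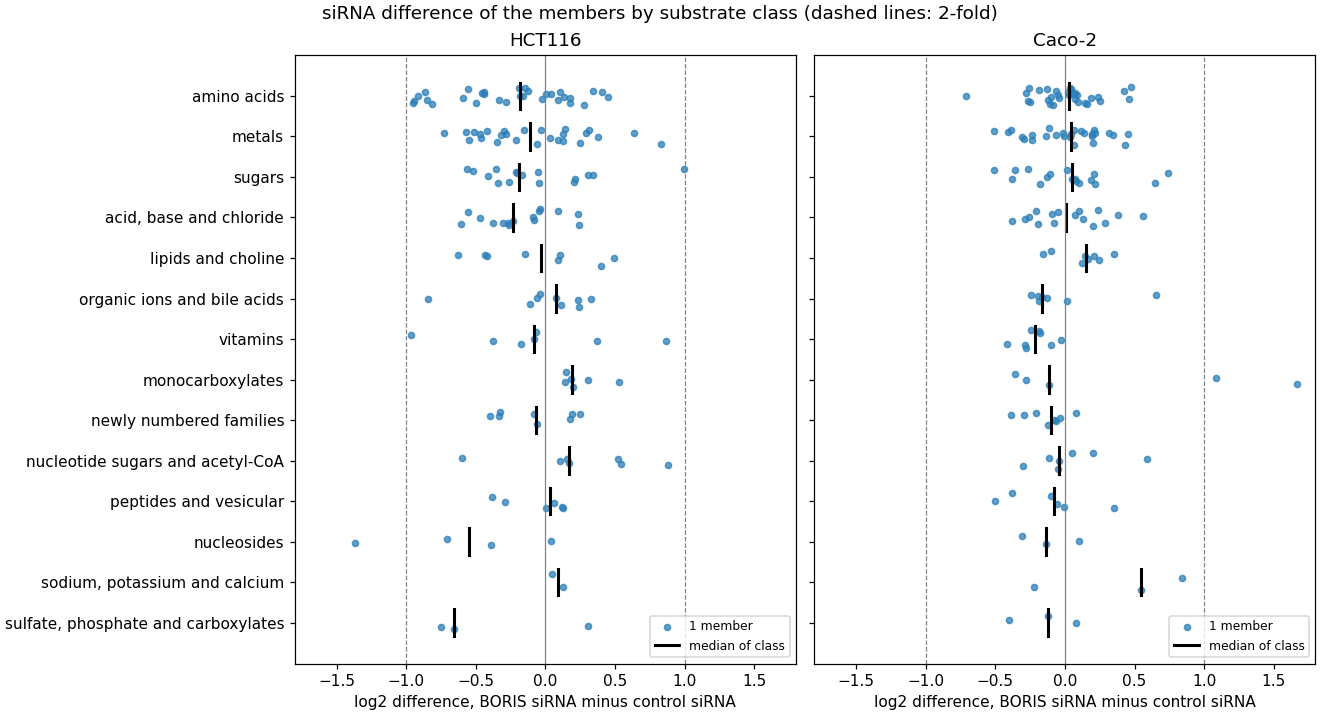
Log2 difference, BORIS siRNA minus control siRNA (x axis), of every member expressed in HCT116 (left) or Caco-2 (right), 1 point a member, by substrate class, with the class median as a black bar and dashed lines at 2-fold. In HCT116 the median of the 31 amino acid carriers is -0.18 and that of the 6 monocarboxylate carriers 0.19; in Caco-2 that of the 8 vitamin carriers is -0.22.

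The remaining classes differed in how they leaned, to be read beside the 55.4% of all genes below 0 in HCT116 and 49.4% in Caco-2. No class was tested. Of the 15 acid, base and chloride carriers expressed in HCT116, 12 were below 0 (median -0.24), and in Caco-2 8 of 16 were (median 0.01). Sugar carriers were below 0 in 11 of 16 cases in HCT116 (median -0.19) and in 7 of 17 in Caco-2 (median 0.05). Metal carriers had medians of -0.11 in HCT116 and 0.04 in Caco-2, with 15 of 26 and 12 of 27 below 0. Lipid and choline carriers were below 0 in 4 of 8 cases in HCT116 and in 2 of 8 in Caco-2 (median 0.15). Members of newly numbered families were below 0 in 5 of 8 cases in HCT116 and 7 of 8 in Caco-2. For peptide and vesicular carriers the counts were 2 of 6 and 5 of 6, and for organic ion and bile acid carriers 4 of 9 and 5 of 7. Classes of 4 or fewer members are not given here. With loess correction the amino acid median in HCT116 was -0.14 and the acid, base and chloride median -0.19.

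The third comparison asked which carriers differed in the same direction in both lines. No member did so at 1.5-fold, beside 0.477% of 9855 genes higher and 0.173% lower in both lines. Of 135 members expressed in both, 44 (32.6%, beside 29.8% of all genes) were below 0 in both, 27 (20.0%, beside 24.4%) were above 0 in both, and 64 had opposite signs. Pearson's r between the lines' differences was 0.05 over these members and 0.17 over all genes expressed in both, a description over genes that share arrays. In the limma fit of a shared siRNA effect, with line as a block, 0 members and 0 of 11165 genes passed, and the lowest adjusted p of a member was 0.769. At an unadjusted p under 0.05, 8 members (4.94%) and 670 genes (6.00%) passed.

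Members with the largest differences of 1 sign in both lines, ranked by the smaller of the pair, included carriers of several substrates. SLC31A2, a copper carrier of endosomes, read 7.18 with BORIS siRNA and 7.60 with control siRNA in HCT116 and 6.74 and 7.15 in Caco-2. Its differences were -0.42 and -0.41, with all 3 probe sets lower in each line. SLC48A1, a heme carrier of lysosomes, differed by -0.55 in HCT116 and -0.39 in Caco-2, but by 0.40 in HCT116 without the probe sets that can bind related transcripts. SLC26A6, an anion exchanger, differed by -0.61 and -0.38 on 2 of 2 probe sets each, but by -0.08 in Caco-2 without such probe sets, and SLC29A3 by -0.71 and -0.31. Above 0 in both lines, SLC30A9 differed by 0.63 in HCT116 and 0.43 in Caco-2, and the zinc importer SLC39A10 by 0.29 and 0.35 on 3 of 3 probe sets each. SLC7A2, a cationic amino acid carrier, differed by 0.34 and 0.46. None of these passed the test.

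**Figure D5:**
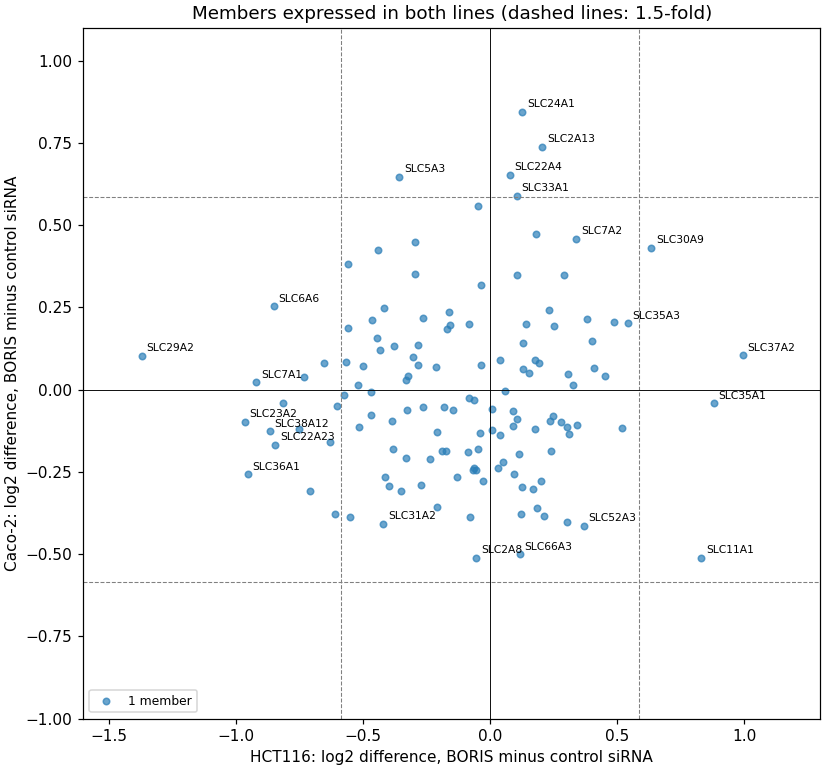
Log2 difference, BORIS siRNA minus control siRNA, in HCT116 (x axis) and Caco-2 (y axis) for the 135 members expressed in both lines, 1 point a member, with dashed lines at 1.5-fold. No point lies beyond the dashed lines in both directions at once; SLC29A2 lies far left and SLC24A1 highest.

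Genes that work with the carriers were read beside them. Of the zinc response list, the metallothioneins and their regulator MTF1, 5 of 6 expressed genes were below 0 in HCT116 (median -0.53) and 7 of 7 in Caco-2 (median -0.60). Of all expressed genes, 55.4% were below 0 in HCT116 and 49.4% in Caco-2. MT1X read 10.20 with BORIS siRNA and 10.82 with control siRNA in HCT116, and 8.60 and 9.48 in Caco-2. MT2A differed by -0.59 and -0.34, and MT1G by 0.22 in HCT116 and -0.99 in Caco-2, where it read 8.90 with BORIS siRNA and 9.89 with control siRNA. Metallothionein genes are near-identical copies whose probe sets can bind each other's transcripts, so these are not separate observations. Of the 17 zinc carriers of SLC30 and SLC39 expressed in both lines, 4 were below 0 in both and 6 above 0 in both, beside 29.8% and 24.4% of all genes. Of the sodium pump and partner list, 7 of 9 expressed genes were below 0 in HCT116 (median -0.04) and 1 of 8 in Caco-2 (median 0.08), beside the same 55.4% and 49.4%. None of these lists was tested.

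Of the 9 carriers left out by name, 7 had a probe set of their own. The glucose carrier SLC2A1 read 10.45 with BORIS siRNA, against 11.50 with control siRNA, in HCT116 and 11.88 against 12.17 in Caco-2. The cystine carrier SLC7A11 read 9.94 against 9.42 in HCT116 and 10.87 against 10.55 in Caco-2. SLC15A1 and SLC26A3 were below background on all 4 arrays. In the neighbouring organic anion family, SLCO1B3, a hepatic bile acid and drug carrier, read 7.61 against 6.66 in HCT116 and was below background in Caco-2.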

How the data were processed

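Total RNA of HCT116 and Caco-2 cells with BORIS or control siRNA was measured on 4 arrays, 1 per group. The authors deposited log2 values, 1 for each probe set; their range of 2.13 to 14.17 gave the unit, and no quartile differed between arrays by more than 0.129. How the authors corrected, normalized and summarised the probes is not stated by the labels or files. Per the labels' protocols, RNA was extracted with TRIzol and labelled with biotin by a 3' in vitro transcription kit.

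Of 49395 probe sets, the platform annotation pairs 44994 with 1 gene, 1832 with several and 2569 with none. A gene was represented by its brightest probe set of 1 symbol (mean of 4 arrays); 0 symbols changed through Entrez ID. Within a line the value is BORIS siRNA minus control siRNA, with no test. The shared siRNA effect and the line difference were tested in R 4.3.3 with the package limma 3.58.1 (functions lmFit and eBayes, trend on, 1 residual degree of freedom; Benjamini-Hochberg adjusted p under 0.05 over all genes tested). Its residual spread is how far the lines' siRNA differences disagree, and separate cultures are not stated, so p-values measure the spread between these arrays. A reading below background gives a bound, against the higher of that level and its own value. On simulated data the test of the shared effect made more false calls than its threshold allows; the line difference, from the same fit, was not simulated. The arrays' number limits the precision.

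Genes named were those with the highest readings, the largest siRNA differences in each line and shared by both, the largest line differences past the test, those leading each substrate class, those next to the threshold, and members of the partner and marker lists. The members and lists were chosen with earlier results of these data known. Substrate classes and the intracellular list come from textbook knowledge of the families. Alternatives were other filters, probe set choices, normalizations, an added constant of 16, limma without trend and each siRNA's arrays alone.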

Additional observations from a re-analysis of the deposited data

Results flagged for a closer look

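SLC11A1, an iron and manganese carrier of macrophage phagosomes, stood out because the lines' siRNA differences opposed each other among the 10 largest of each. It read 6.49 with BORIS siRNA and 5.66 with control siRNA in HCT116, a difference of 0.83, and 5.65 and 6.16 in Caco-2, a difference of -0.51. The difference between the lines was not tested, since each group holds 1 array. Only 1 of its 6 probe sets was above background, and the mean over all 6 was 0.05 in HCT116 and -0.24 in Caco-2.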

How the results depend on the processing

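Replicates could not be paired, because the labels give no replicate numbers and each group holds 1 array. The limma fits pair the arrays only by line or by siRNA, as blocks, and no replicate could be left out. Compared with their values under other settings, counts and medians stayed close in 130 cases and moved in 13. Values of named genes, and of all genes together, stayed close in 639 cases, moved in 44, lost their line call in 7 and turned sign in 1. In HCT116, members higher at 2-fold numbered 1 with quantile normalization and 1 with loess correction, and members lower at 2-fold 2 with loess correction and 0 when a gene's probe sets were averaged. Members higher at 1.5-fold in HCT116 numbered 12 with no filter and 3 with averaged probe sets, and members lower 8 with averaged probe sets. In Caco-2, members higher at 2-fold numbered 1 without _x_at and _s_at probe sets and 1 with 16 added on the linear scale, and members lower at 1.5-fold 4 with no filter. With no filter, which admits all 274 carriers, 127 were below 0 in HCT116 and 163 in Caco-2, and the median line difference was -0.00015. SLC2A13 in Caco-2 turned to -0.086 without the _x_at and _s_at probe sets. Raising values at background, an alternative chosen after seeing the data, and leaving out those probe sets ended the line calls of 5 and 2 named genes, given above. The limma test of the shared effect called 0 members under every setting run. Signal near background limits 22 members that were below it on at least 1 array.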

Other observations

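Among members with 3 or more probe sets above background in both lines, 14 had 1 sign over all such probe sets in each line, and 4 of these had opposite signs in the lines. This count was not made over all genes. On the probe set used, 64 of the 135 members expressed in both lines had opposite signs. Of all genes expressed in both, 29.8% were below 0 in both lines and 24.4% above 0 in both. Opposite signs are thus common and not particular to these 4. The 4 were singled out after their values were seen. SLC12A2 read lower with BORIS siRNA on 3 of 3 probe sets in HCT116 (-0.56 on the one used, 8.97 against 9.53) and higher on 3 of 3 in Caco-2 (0.38, 11.81 against 11.43), with means over its probe sets of -0.52 and 0.60. SLC17A5 differed by -0.29 in HCT116 and 0.35 in Caco-2 on 5 of 5 probe sets each, 3 of which can bind related transcripts. SLC6A8, the creatine carrier, differed by -0.56 and 0.19 on 3 of 3 probe sets (-0.10 in HCT116 without those that can bind related transcripts), and the zinc importer SLC39A6 by -0.03 and 0.32. Probe sets of 1 gene on 1 array are not replicates, and the differences between the lines were not tested.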
